A study of Mus musculus with 26 samples.

Results

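The 8 genes that encode the subunits of striated muscle troponin were followed through the differentiation of C2C12 cells, a mouse myoblast line. The cells were given siRNAs against the lysine methyltransferase SMYD3 or carried a retroviral SMYD3. The genes were taken by symbol as 8 of the 55341 genes counted in each library, and comprise Tnnc1, Tnnc2, Tnni1, Tnni2, Tnni3, Tnnt1, Tnnt2 and Tnnt3. All 8 had a count column in all 26 libraries, which were made from polyA RNA and fall into 10 conditions. In the knockdown experiment, cells received a control siRNA (siCtrl) or 1 of 2 siRNAs against Smyd3 (siSMYD3#1 and siSMYD3#2) while proliferating and again 24 h later at the switch to differentiation medium, and were collected at confluence when the medium was changed (0 h) and 24 h later, with 3 libraries per siRNA and time. In the overexpression experiment, cells of the stable line SMYD3 CL5, which carries a retroviral HA-FLAG-tagged SMYD3 and is a single clone, and cells of an empty vector (pREV) line were collected at the same times, with 2 libraries per line and time.

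Troponin is the calcium switch of the striated muscle thin filament, a complex of 3 subunits that lies along actin and tropomyosin. Troponin C binds calcium, troponin I holds actin and myosin apart while calcium is low, and troponin T ties the complex to tropomyosin. Each subunit comes in isoforms from separate genes. Tnni1 and Tnnt1 encode the slow skeletal forms and Tnnc1 the form shared by slow and cardiac muscle. Tnnc2, Tnni2 and Tnnt3 encode the fast skeletal forms, and Tnni3 and Tnnt2 the cardiac forms, of which Tnnt2 is also known from embryonic skeletal muscle and cultured muscle cells.

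In GRCm38, a troponin I gene and a troponin T gene lie close together on the same strand in 3 places. Tnni1 (chromosome 1, 135779434 to 135810989) and Tnnt2 (135836354 to 135852260) are 25364 bases apart on the plus strand, with 1 protein-coding gene between them. Tnni2 (chromosome 7, 142441808 to 142444410) and Tnnt3 (142498836 to 142516009) are 54425 bases apart on the plus strand, also with 1 protein-coding gene between them. Tnni3 (chromosome 7, 4518305 to 4524229) and Tnnt1 (4504570 to 4516382) are 1922 bases apart on the minus strand, with no protein-coding gene between them. Each pair thus joins isoforms named for different muscle types in the cardiac cases and for the same type in the fast case. Tnnc1 lies on chromosome 14 (31208312 to 31211729, plus strand). Tnnc2 lies on chromosome 2 (164777161 to 164779967, minus strand), where 592 of its 800 exon bases are shared with Ube2c, a cell cycle gene on the other strand.

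The stretches ahead of a RefSeq start site of 4 members are shown, which take in 1 gene of each subunit (Tnnc1, Tnni1, Tnnt2) and the slow T gene Tnnt1, each printed free of annotated exons. Those of Tnni1 and Tnnt1 precede a start that lies inside the gene as given above. RefSeq promoter sequences of GRCm38.p6 were given for 6 of the 8 members, not for Tnni2 and Tnnt3. Capitals mark CANNTG, the E-box letters that the MyoD family of muscle transcription factors can bind, which read the same pattern on both strands. Each run is written 5′ to 3′ on the strand of the gene and ends at or before the base ahead of the start site.
Tnnc1, chr14:31208062-31208311, plus strand: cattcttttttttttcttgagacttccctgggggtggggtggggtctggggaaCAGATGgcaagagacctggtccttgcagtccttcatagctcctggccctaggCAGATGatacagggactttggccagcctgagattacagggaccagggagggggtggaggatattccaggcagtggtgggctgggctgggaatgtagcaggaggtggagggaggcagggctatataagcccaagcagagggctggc
Tnni1, chr1:135799171-135799401, plus strand: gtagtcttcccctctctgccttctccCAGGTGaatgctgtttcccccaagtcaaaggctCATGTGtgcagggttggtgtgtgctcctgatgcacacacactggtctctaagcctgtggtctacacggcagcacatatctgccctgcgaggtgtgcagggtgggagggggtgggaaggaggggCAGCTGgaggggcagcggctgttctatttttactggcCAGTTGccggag
Tnnt1, chr7:4516005-4516225, minus strand: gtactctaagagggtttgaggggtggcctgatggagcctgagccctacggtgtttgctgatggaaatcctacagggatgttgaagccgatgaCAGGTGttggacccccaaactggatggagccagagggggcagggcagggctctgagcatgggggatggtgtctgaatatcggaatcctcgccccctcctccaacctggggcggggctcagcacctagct
Tnnt2, chr1:135836084-135836333, plus strand: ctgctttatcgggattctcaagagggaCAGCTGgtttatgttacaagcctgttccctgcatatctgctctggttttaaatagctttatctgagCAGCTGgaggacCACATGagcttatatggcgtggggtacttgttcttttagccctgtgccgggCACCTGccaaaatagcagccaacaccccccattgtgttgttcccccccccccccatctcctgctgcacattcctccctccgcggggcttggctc
The printed stretches held 2 CANNTG matches for Tnnc1, 4 for Tnni1, 1 for Tnnt1 and 4 for Tnnt2. Of all 32851 RefSeq promoters of mouse, 66.2% held at least 1 CANNTG in the 250 bases before the start, so a match is common. CAGCTG, which is contained in CANNTG, occurred once in the stretch of Tnni1 and at 2 places in that of Tnnt2, and in 13% of all promoters. CATTCC, on either strand, occurred once in the stretch of Tnnc1 and once in that of Tnnt2, and in 12.6% of all promoters. CCCTCC, letters that SMYD3 has been described to bind, occurred on either strand in every window of the 6 members, with 1 to 5 matches, and in 35.2% of all promoters. The MEF2 motif was found in none of these windows and in 0.508% of all promoters. These matches describe letters and were not tested as binding sites.

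Libraries held 14315193 to 60398170 counts in the knockdown experiment and 21124675 to 67853386 in the overexpression experiment. Levels are given as CPM, counts scaled to library size, after normalisation by the trimmed mean of M-values over all 26 libraries. Every condition of the knockdown experiment had 2 libraries from NucleoSpin RNA and 1 from TRIzol RNA. The latter also came from another cell passage, so that extraction and passage cannot be told apart. Smyd3 itself stood at 18.3 to 22.1 CPM with siCtrl and 5.46 to 9.91 CPM with siSMYD3#2, a log2 change of -1.51 ± 0.171 at 24 h (SE, edgeR adjusted p = 5.06e-05). With siSMYD3#1 it stood at 15.6 to 20.2 CPM and the change of -0.24 at 24 h did not pass (edgeR adjusted p = 0.414), so the libraries labelled siSMYD3#1 show their target little changed at the RNA level. The study followed Smyd3 by qPCR and SMYD3 protein by western blot after siRNA, and describes both siRNAs as silencing it. Smyd3 counts in CL5 were 16.0 to 26.1 CPM against 15.1 to 17.7 CPM in vector cells and did not pass either; the species of the introduced cDNA is not given in the sources used here. All 5 myoblast markers (Myod1, Myf5, Cdh15, Des, Chrna1) had counts in every library. Their summed level was 353 to 1994 CPM in the siRNA libraries at 0 h and 836 to 2708 CPM at 24 h. Summed adipocyte markers reached at most 1.603 CPM. Summed smooth muscle markers were not low, at 838 to 5035 CPM over the libraries, and osteoblast markers stood at 37.5 to 94.6 CPM.

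The CL5 libraries at 0 h disagreed with each other. The second held more of every troponin gene than the first, and troponin counts made up 0.0745% of its total against 0.0150% in the first and 0.0055% to 0.0084% in the vector libraries. Log2 changes of CL5 at 0 h are therefore also given with 1 of these libraries alone.

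**Figure D1:**
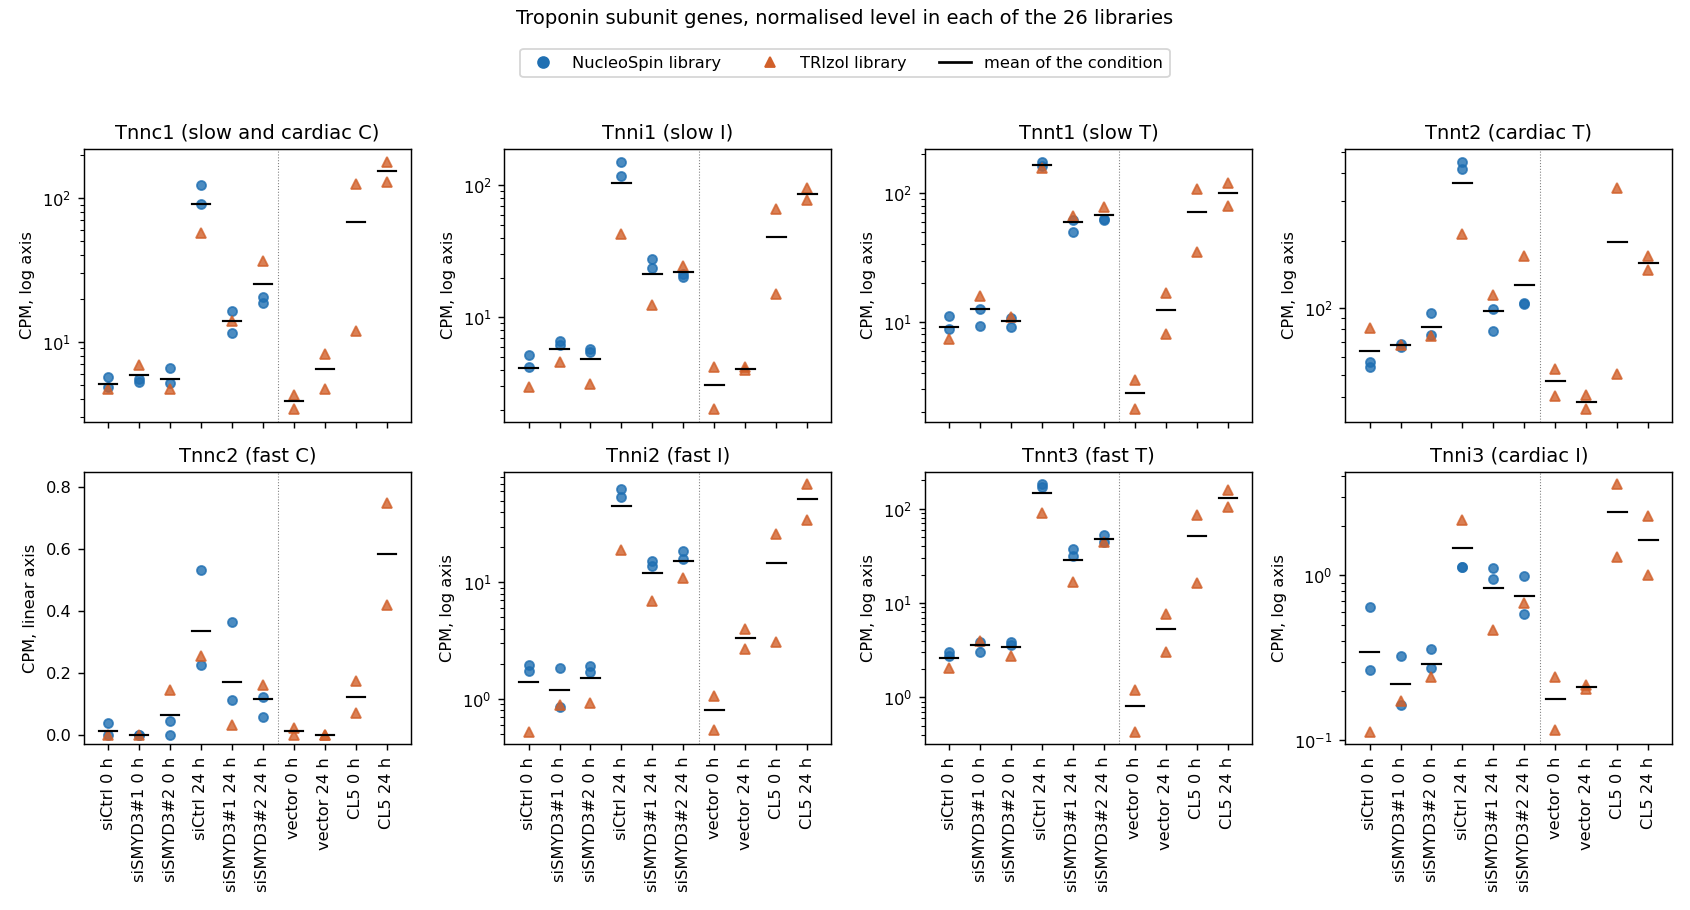
Level of each troponin gene in each library (CPM; logarithmic vertical axes except for Tnnc2, which has a linear axis), by condition, with circles for NucleoSpin and triangles for TRIzol libraries and a bar at the mean of the condition. In siCtrl cells all 8 genes lie higher at 24 h than at 0 h without overlap, the siSMYD3 libraries at 24 h lie below the siCtrl libraries at 24 h for the 7 genes other than Tnnc2, and the CL5 libraries at 0 h spread widely.

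Which troponin genes rise when C2C12 cells begin to differentiate was first read from the siCtrl libraries. All 7 members with enough counts to be tested rose between 0 h and 24 h, with a median log2 change of 4.18 against 0.027 over all 15820 genes tested. In that comparison 14.6% of all genes rose at an edgeR adjusted p under 0.01. No library at 24 h overlapped a library at 0 h for any of the 7, a pattern that 16.4% of all genes showed. In bulk RNA, fewer cells that make a transcript and less of it per cell cannot be told apart.

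Among the slow forms, Tnnc1 stood at 4.73, 4.82 and 5.70 CPM at 0 h and at 57.5, 90.6 and 123 CPM at 24 h, in each case with the TRIzol library first. This is a 17.8-fold rise (log2 change 4.16 ± 0.308, SE, edgeR adjusted p = 1.37e-07). The lowest library at 24 h was the TRIzol library, which held still far more than any library at 0 h. Tnni1 went from 2.96, 4.25 and 5.22 CPM to 42.9, 119 and 151 CPM (log2 change 4.58 ± 0.309, edgeR adjusted p = 6.09e-08), again with the TRIzol library lowest. Tnnt1 went from 7.36, 8.84 and 11.1 CPM to 158, 175 and 163 CPM (4.18 ± 0.180, edgeR adjusted p = 4.55e-11). Its 3 libraries at 24 h lay closest together of all members.

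The fast forms had the larger log2 changes. Tnnt3 went from 2.06, 2.77 and 2.99 CPM to 89.5, 171 and 181 CPM, a 55.6-fold rise (log2 change 5.80 ± 0.234, edgeR adjusted p = 4.55e-11) and the largest among the 7. Tnni2 went from 0.525, 1.75 and 1.97 CPM to 18.9, 53.5 and 62.6 CPM (4.94 ± 0.244, edgeR adjusted p = 9.62e-11). Both genes were lowest in the TRIzol library at either time.

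The cardiac forms behaved apart from each other in level. Tnnt2 stood at 80.9, 54.5 and 57.5 CPM at 0 h, the highest counts of the family, and reached 214, 417 and 452 CPM at 24 h (5.77-fold, log2 change 2.53 ± 0.280, edgeR adjusted p = 8.33e-06). Tnni3 stood at 0.113, 0.266 and 0.645 CPM and then at 2.17, 1.12 and 1.13 CPM (log2 change 2.09 ± 0.466, edgeR adjusted p = 0.0014). These were the 2 smallest rises among the 7. Tnni3 was the only member whose TRIzol library was highest at 24 h, its change being 3.77 on the log2 CPM scale between the TRIzol libraries and 1.33 between the means of the NucleoSpin libraries. The call for Tnni3 was lost when the TRIzol library of siCtrl at 0 h (log2 change 1.67) or at 24 h (1.41) was left out.

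The same step was then examined after knockdown. With siSMYD3#1, 5 of the 7 genes rose between 0 h and 24 h (background 12.7% of all genes), with a median log2 change of 1.86 over the 7 and 0.021 over all genes. With siSMYD3#2, 5 of the 7 rose as well (background 9.11%), with a median of 2.34 over the 7 and 0.013 over all genes. The genes that rose were Tnnc1, Tnni1, Tnni2, Tnnt1 and Tnnt3 in both. Their log2 changes ran from 1.23 ± 0.301 for Tnnc1 to 3.32 ± 0.257 for Tnni2 with siSMYD3#1, and from 2.22 ± 0.300 for Tnnc1 to 3.86 ± 0.222 for Tnnt3 with siSMYD3#2. Tnnt2, the cardiac T gene, did not pass with either siRNA: the log2 changes were 0.53 ± 0.268 (edgeR adjusted p = 0.139) and 0.64 ± 0.267 (edgeR adjusted p = 0.0852). Tnni3 missed the threshold at 1.86 ± 0.545 (edgeR adjusted p = 0.0114) and 1.41 ± 0.529 (edgeR adjusted p = 0.0488). The call for Tnnc1 with siSMYD3#1 was lost when either NucleoSpin library of that siRNA at 0 h, the TRIzol library at 24 h or the second NucleoSpin library at 24 h was left out, the change then being 1.09 to 1.22.

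Whether the rise itself differed from that in siCtrl cells was tested with an interaction term. For siSMYD3#1, 4 members had a smaller rise than in siCtrl cells, where 0.171% of all genes did. The difference of the log2 changes was -2.92 ± 0.417 for Tnnc1 (edgeR adjusted p = 0.00392), -2.75 ± 0.410 for Tnni1 (0.00515 as edgeR adjusted p), -1.93 ± 0.234 for Tnnt1 (edgeR adjusted p = 0.000702) and -2.89 ± 0.310 for Tnnt3 (edgeR adjusted p = 0.000245). Tnnt2, at -2.00 ± 0.381 (edgeR adjusted p = 0.0326), Tnni2, at -1.62 ± 0.360 (edgeR adjusted p = 0.0452), and Tnni3, at -0.23 ± 0.769, did not pass. The calls for Tnnc1 and Tnni1 were lost, leaving 2, when any library of siCtrl at 0 h, of siSMYD3#1 at either time or the first NucleoSpin library of siCtrl at 24 h was left out, and that for Tnni1 also without any library of siSMYD3#2 at 0 h. All 4 were lost without the extraction covariate and in a fit of all 26 libraries, and DESeq2 called 6. For siSMYD3#2 the differences ran from -0.68 for Tnni3 to -2.24 for Tnni1, and none passed by edgeR (background 0.019%, or 3 of all genes), with 6 of the 7 at an unadjusted p under 0.05, as 10% of all genes were. The nearest to the threshold were Tnnt3, at -1.94 ± 0.306 (edgeR adjusted p = 0.0174), and Tnnt1, at -1.43 ± 0.234 (edgeR adjusted p = 0.0194), and DESeq2 called 6 of the 7. The NucleoSpin libraries alone also gave 6 calls for siSMYD3#2. The shares of all genes called in these alternative fits are not given here, so the edgeR backgrounds do not apply to them.

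**Figure D2:**
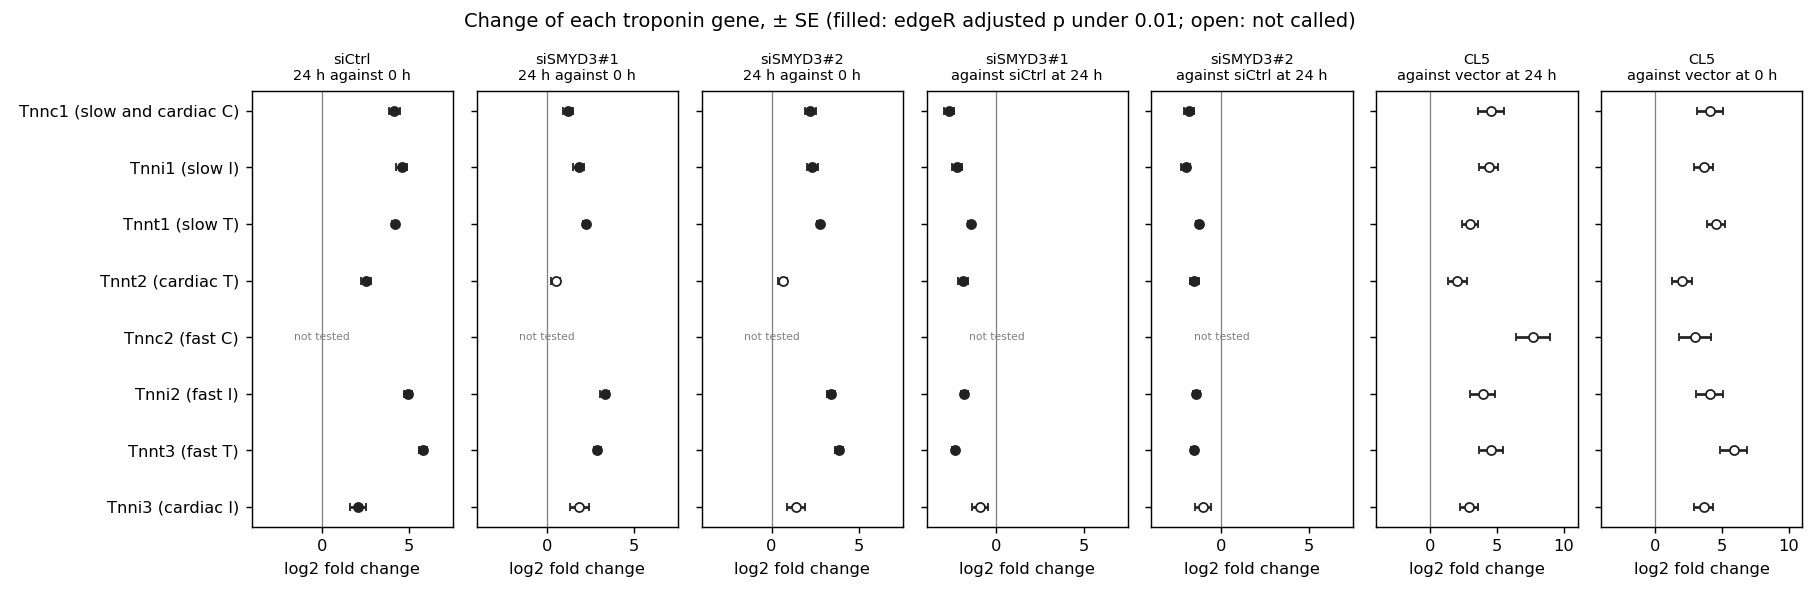
Log2 fold change of each troponin gene in 7 comparisons, with bars of ± 1 SE; filled points passed an edgeR adjusted p under 0.01 and open points did not. The fitted value of Tnnc2 in CL5 rests on vector libraries with 0 or 1 count and depends on the prior count; in the siRNA libraries Tnnc2 had too few counts to be tested. The rises after knockdown lie to the left of those in siCtrl cells.

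At 24 h the siSMYD3 libraries were compared with siCtrl directly. With siSMYD3#1, 6 of the 7 genes were lower (background 2.94%), with a median log2 change of -1.91 against -0.001 over all genes. With siSMYD3#2, the same 6 genes were lower (background 2.04%), with a median of -1.54 against -0.004. The 6 calls with siSMYD3#2 became 2 without the extraction covariate and 1 in a fit of all 26 libraries. The exception in both was Tnni3. All 7 genes, Tnni3 included, lay below siCtrl in every library, a pattern shown by 7.49% of all genes for siSMYD3#1 and 8.03% for siSMYD3#2. The comparisons share the siCtrl libraries and are therefore not independent.

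Tnnc1 fell furthest with siSMYD3#1, to 13.9 CPM in the TRIzol library and 11.4 and 16.5 CPM in the NucleoSpin libraries (log2 change -2.71 ± 0.287, edgeR adjusted p = 2.80e-05). With siSMYD3#2 it stood at 36.5 CPM in the TRIzol library and at 20.5 and 18.5 CPM in the NucleoSpin libraries (-1.84 ± 0.278, edgeR adjusted p = 0.000988). The siCtrl libraries began at 57.5 CPM, so that neither group overlapped them. Tnni1 stood at 12.4, 27.5 and 23.8 CPM with siSMYD3#1 (-2.25 ± 0.272, edgeR adjusted p = 7.81e-05), with the TRIzol library first. It stood at 24.7 CPM in the TRIzol library and 20.2 and 21.3 CPM in the NucleoSpin libraries with siSMYD3#2 (-2.05 ± 0.274, edgeR adjusted p = 0.000419). Levels with the 2 siRNAs overlapped. Tnnt1 had the smallest fall of the 6: 66.6, 61.8 and 49.9 CPM with siSMYD3#1 (-1.48 ± 0.159, edgeR adjusted p = 1.09e-05) and 62.6, 62.4 and, from TRIzol, 78.6 CPM with siSMYD3#2 (-1.29 ± 0.159, edgeR adjusted p = 0.000115).

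Tnnt3, the fast T gene, stood at 16.7, 37.2 and 31.5 CPM with siSMYD3#1 (log2 change -2.37 ± 0.191, edgeR adjusted p = 1.06e-06). With siSMYD3#2 it stood at 44.0 CPM in the TRIzol library and 53.1 and 44.6 CPM in the NucleoSpin libraries (-1.58 ± 0.186, edgeR adjusted p = 0.000103). The log2 difference of siSMYD3#1 from siSMYD3#2 was -0.80 ± 0.188 and did not pass (edgeR adjusted p = 0.0141). Tnni2, the fast I gene, stood at 6.91, 13.8 and 15.3 CPM with siSMYD3#1 (-1.84 ± 0.202, edgeR adjusted p = 1.09e-05) and at 18.6, 15.9 and 11 CPM with siSMYD3#2, the last from TRIzol (-1.44 ± 0.200, edgeR adjusted p = 0.000248). The lowest siCtrl library, from TRIzol, held 18.9 CPM, only just above the highest siSMYD3#2 library.

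Tnnt2, the cardiac T gene, stood at 114, 98.8 and 78.5 CPM with siSMYD3#1, with the TRIzol library first (-1.91 ± 0.274, edgeR adjusted p = 0.000436). With siSMYD3#2 it stood at 104 and 105 CPM in the NucleoSpin libraries and 170 CPM in the TRIzol library (-1.54 ± 0.272, edgeR adjusted p = 0.00326). The latter call was lost when either NucleoSpin library of siCtrl or of siSMYD3#2 at 24 h was left out, the change then being -1.43 to -1.32. Tnni3 stood at 0.469, 1.11 and 0.95 CPM with siSMYD3#1 and at 0.685, 0.987 and 0.587 CPM with siSMYD3#2, with the TRIzol library first, and did not pass (-0.92 ± 0.447, edgeR adjusted p = 0.215, and -1.04 ± 0.456, edgeR adjusted p = 0.181). Its 2 NucleoSpin libraries of siCtrl, at 1.12 and 1.13 CPM, were barely above the highest siSMYD3#1 library.

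The size of these falls went with the extraction. With siSMYD3#2 the fall on the log2 CPM scale was smaller between the TRIzol libraries than between the NucleoSpin libraries for 6 genes: -0.65 against -2.43 for Tnnc1, -0.80 against -2.69 for Tnni1, -0.78 against -1.75 for Tnni2, -1 against -1.44 for Tnnt1, -0.33 against -2.06 for Tnnt2 and -1.02 against -1.86 for Tnnt3. Tnni3 went the other way, at -1.60 against -0.53. With siSMYD3#1 the TRIzol value was the smaller for Tnnc1 (-2.05 against -2.94), Tnni1 (-1.79 against -2.39), Tnni2 (-1.44 against -1.99), Tnnt1 (-1.24 against -1.61) and Tnnt2 (-0.90 against -2.30), and the larger for Tnnt3 (-2.42 against -2.36) and Tnni3 (-2.10 against -0.13). The direction was the same in both extractions for every gene. With 1 TRIzol library per condition these differences between extractions have no replicate check.

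Between the siRNAs at 24 h, none of the 7 genes passed by edgeR (background 3.36%), with 2 at an unadjusted p under 0.05, as 22.2% of all genes were. The log2 differences of siSMYD3#1 from siSMYD3#2 were -0.88 ± 0.282 for Tnnc1 (edgeR adjusted p = 0.0708), -0.80 ± 0.188 for Tnnt3 (edgeR adjusted p = 0.0141) and between -0.40 and 0.11 for the others. DESeq2 called 1 of the 7, and the share of all genes it called is not given here. At 0 h, before the medium was changed, none of the 7 genes passed by edgeR against siCtrl with siSMYD3#1 (background 1.43%, with 1 of the 7 and 13.9% of all genes at an unadjusted p under 0.05) or siSMYD3#2 (background 0.531%, with 0 of the 7 and 10.1% of all genes). The median log2 differences were 0.21 and 0.14. The member with the smallest unadjusted p was Tnnt1 with siSMYD3#1, at 15.9, 9.30 and 12.7 CPM against 7.36, 8.84 and 11.1 CPM in siCtrl (0.44 ± 0.174, edgeR adjusted p = 0.221). DESeq2 also called none of the 7 at 0 h.

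Tnnc2, the fast troponin C gene, could be measured only in part. Reads over exon bases annotated to genes on both strands appear to have been counted for neither gene: of 267 genes that lie wholly within exons of the other strand, 263 (98.5%) had 0 counts in every library, against 36.4% of 36359 genes without such overlap. This leaves 208 of the 800 exon bases of Tnnc2. In siCtrl cells it held 1 count over the 3 libraries at 0 h and 7, 5 and 8 counts at 24 h, a ratio of 35.7 between the rates per total count (95% interval 5.72 to 1480, exact binomial, counting error only). At 24 h siSMYD3#1 libraries held 1, 3 and 5 counts, 0.387 of the siCtrl rate (0.155 to 0.89), and siSMYD3#2 libraries held 2, 1 and 4 counts, 0.381 of it (0.136 to 0.939). The intervals exclude equality in these pooled counts but do not cover the spread between libraries. CL5 libraries at 24 h held 25 and 17 counts and the vector libraries none. The CL5 rate was 21-fold higher if the vector group is given 3 counts, the limit that a count of 0 allows. This value takes the CL5 count as exact and leaves out the spread between libraries. The low level of Tnnc2 in all conditions, at most 0.749 CPM, cannot be read as a low level of its RNA.

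The overexpression experiment compares troponin transcripts in the SMYD3 CL5 clone with those in the vector line. CL5 is a single clone, and the study states that cells with the control vector were sub-cloned too. The introduced SMYD3 and the clone therefore cannot be told apart in these libraries. With CL5 all 8 genes lay above the vector line in every library at 24 h, a pattern shown by 26.5% of all 17835 genes tested, and 7 of 8 did so at 0 h, where 24.3% of all genes did. The exception at 0 h was Tnnt2. With 2 libraries per group none of the 8 passed by edgeR at 24 h (background 0.376%) or at 0 h (background 0.465%), while the number with an unadjusted p under 0.05 was 8 at both times, beside 14% of all genes at 24 h and 18.3% at 0 h. DESeq2 called 7 of the 8 at 24 h (background 2.52%), all but Tnnt2 (DESeq2 adjusted p = 0.0382), and 6 at 0 h (background 3.5%), all but Tnnt2 (DESeq2 adjusted p = 0.0264) and Tnnc2 (DESeq2 adjusted p = 0.304). Tnnc2 and Tnni3 passed the filter on low counts through the CL5 libraries, so their inclusion is no support. The spread of the CL5 libraries at 0 h enters the shared estimate of dispersion. With either of them left out that group holds a single library, so no count is given for such fits.

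In vector cells Tnnc1 stood at 4.30 and 3.40 CPM at 0 h and 4.70 and 8.28 CPM at 24 h. In CL5 it stood at 12 and 126 CPM at 0 h and 129 and 180 CPM at 24 h (log2 change against vector at 24 h 4.54 ± 0.987, edgeR adjusted p = 0.0561). The second library at 0 h was thus at the level of 24 h and the first was not. At 0 h the log2 change of Tnnc1 was 4.08 with both libraries, 5.01 with the second alone and 1.61 with the first alone. Tnni1 stood at 2.02 to 4.23 CPM in the 4 vector libraries, at 15.1 and 66.2 CPM in CL5 at 0 h and at 77.6 and 95.7 CPM at 24 h (4.37 ± 0.713 at 24 h, edgeR adjusted p = 0.021). At 0 h its log2 change was 3.62 ± 0.695 with both libraries and did not pass (edgeR adjusted p = 0.0355), 4.37 with the second alone and 2.22 with the first alone. Tnnt1 stood at 2.11 and 3.53 CPM and then 8.05 and 16.9 CPM in vector cells, against 35.1 and 107 CPM and then 79.5 and 120 CPM in CL5 (2.97 ± 0.611 at 24 h, edgeR adjusted p = 0.0479). Its log2 change at 0 h was 4.57 ± 0.665 with both libraries (edgeR adjusted p = 0.0129) and 3.59 with the first alone.

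The fast genes gave some of the largest differences. Tnnt3 stood at 0.433 and 1.18 CPM at 0 h and 3 and 7.68 CPM at 24 h in vector cells, and at 16.3 and 85.8 CPM and then 105 and 156 CPM in CL5. Its log2 change was 5.86 ± 0.983 at 0 h (edgeR adjusted p = 0.0221) and 4.58 ± 0.897 at 24 h (edgeR adjusted p = 0.0407), and at 0 h 4.24 with the first CL5 library alone. Even the lower CL5 library at 0 h exceeded the higher vector library at 24 h. Tnni2 stood at 0.548 and 1.05 CPM and then 2.67 and 3.97 CPM in vector cells, against 3.09 and 25.9 CPM and then 34.4 and 69.2 CPM in CL5 (3.93 ± 0.933 at 24 h, edgeR adjusted p = 0.0756). The first CL5 library at 0 h lay within the range of the vector libraries at 24 h, and the log2 change of Tnni2 at 0 h was 4.07 with both, 4.96 with the second alone and 1.88 with the first alone.

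Of the cardiac genes, Tnnt2 differed least. It stood at 40.2 and 53.3 CPM and then 35.1 and 40.8 CPM in vector cells, and at 50.4 and 345 CPM and then 147 and 171 CPM in CL5 (2.04 ± 0.733 at 24 h, edgeR adjusted p = 0.251). At 0 h the log2 change of Tnnt2 was 2.00 with both CL5 libraries, 2.86 with the second alone and 0.07 with the first alone, so that at 0 h the difference came from the second library. Tnni3 stood at 0.115 and 0.241 CPM and then 0.205 and 0.216 CPM in vector cells, against 1.29 and 3.58 CPM and then 1.01 and 2.29 CPM in CL5 (2.89 ± 0.690 at 24 h, edgeR adjusted p = 0.0769). It was higher in every CL5 library than in every vector library, and its log2 change at 0 h was 3.64 with both CL5 libraries, 4.24 with the second alone and 2.77 with the first alone.

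Within the lines, the step from 0 h to 24 h passed for no gene at all in vector cells (0% of all genes called, with 1256 at an unadjusted p under 0.05) or in CL5 (0% called, 1137 at an unadjusted p under 0.05), and the difference of the steps passed for none (0% called, 312 at an unadjusted p under 0.05). DESeq2 called no troponin gene in these 3 comparisons. In vector cells the larger values belonged to Tnnt3, at 2.65 ± 0.884 (edgeR adjusted p = 0.574), and Tnnt1, at 2.1 ± 0.606 (edgeR adjusted p = 0.496). Tnni1 and Tnnt2 stood at 0.35 ± 0.643 and -0.34 ± 0.708 there. In CL5 the log2 changes of the 7 genes other than Tnnc2 ran from -0.58 for Tnni3 to 1.85 for Tnni2. With the first CL5 library at 0 h alone they ran from 0.29 for Tnni3 to 4.04 for Tnni2, and with the second alone from -1.17 for Tnni3 to 0.98 for Tnni2. The mean level of every troponin gene at 24 h was lower in vector than in siCtrl cells. These libraries come from separate experiments, the difference was not tested and the share of all genes with it was not counted.

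The balance of isoforms was read within each library, dividing CPM by the median length of each gene's coding transcripts. The choice of length, made after the data had been seen, decides which form leads: the exons of Tnnt2 together span 7752 bases and its coding transcripts a median of 1104.5. Within troponin T, Tnnt2 made up 82.0% ± 5.38 (SD, n = 3) of the summed level in siCtrl cells at 0 h and 49.3% ± 5.63 at 24 h. Tnnt3 went from 3.77% ± 1.15 to 22.0% ± 2.11 and Tnnt1 from 14.2% ± 4.28 to 28.6% ± 7.73. The embryonic and cardiac form thus gave way to the skeletal forms in share while rising in level. Divided by all exon bases instead, Tnnt2 went from 58.6% ± 9.33 to 21.2% ± 3.08 and Tnnt3 from 11.8% ± 2.78 to 42.5% ± 5.41, so that the fall in share stayed and Tnnt2 no longer led at 24 h. Shares after knockdown moved to similar values: Tnnt2 went from 78.4% ± 4.12 to 48.8% ± 4.62 with siSMYD3#1 and from 83.7% ± 1.26 to 48.3% ± 5.63 with siSMYD3#2. Tnnt3 reached 15.9% ± 6.32 with siSMYD3#1 and 20.5% ± 4.64 with siSMYD3#2. In vector cells (n = 2) Tnnt2 made up 91.9% ± 1.73 at 0 h and 66.2% ± 10.1 at 24 h, against 53.5% ± 10.6 (46% in the first library and 61% in the second) and 38.4% ± 4.20 in CL5. Tnnt3 made up 33.7% ± 2.15 in CL5 at 24 h and 9.46% ± 3.73 in vector cells.

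Within troponin I, the slow gene Tnni1 held the larger share in siCtrl cells at both times, 66.2% ± 9.86 at 0 h and 61.5% ± 1.62 at 24 h. Per exon base these were 53.9% ± 11.3 and 48% ± 1.61, the latter beside 50.1% ± 1.27 for Tnni2, so that the lead of Tnni1 at 24 h rests on the length used. It went from 75.5% ± 5.89 to 54.7% ± 2.93 with siSMYD3#1, from 66.5% ± 1.38 to 50.7% ± 9.14 with siSMYD3#2, from 70.1% ± 0.949 to 46.3% ± 5.51 in vector cells and from 67.4% ± 7.05 to 55.4% ± 8.55 in CL5. Tnni2 took up nearly all of the rest, with 37.0% ± 1.04 in siCtrl cells and 47.4% ± 9 with siSMYD3#2 at 24 h. Tnni3 never exceeded a mean of 5.46%, or 6.88% per exon base, and was the least form of I under both lengths.

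**Figure D3:**
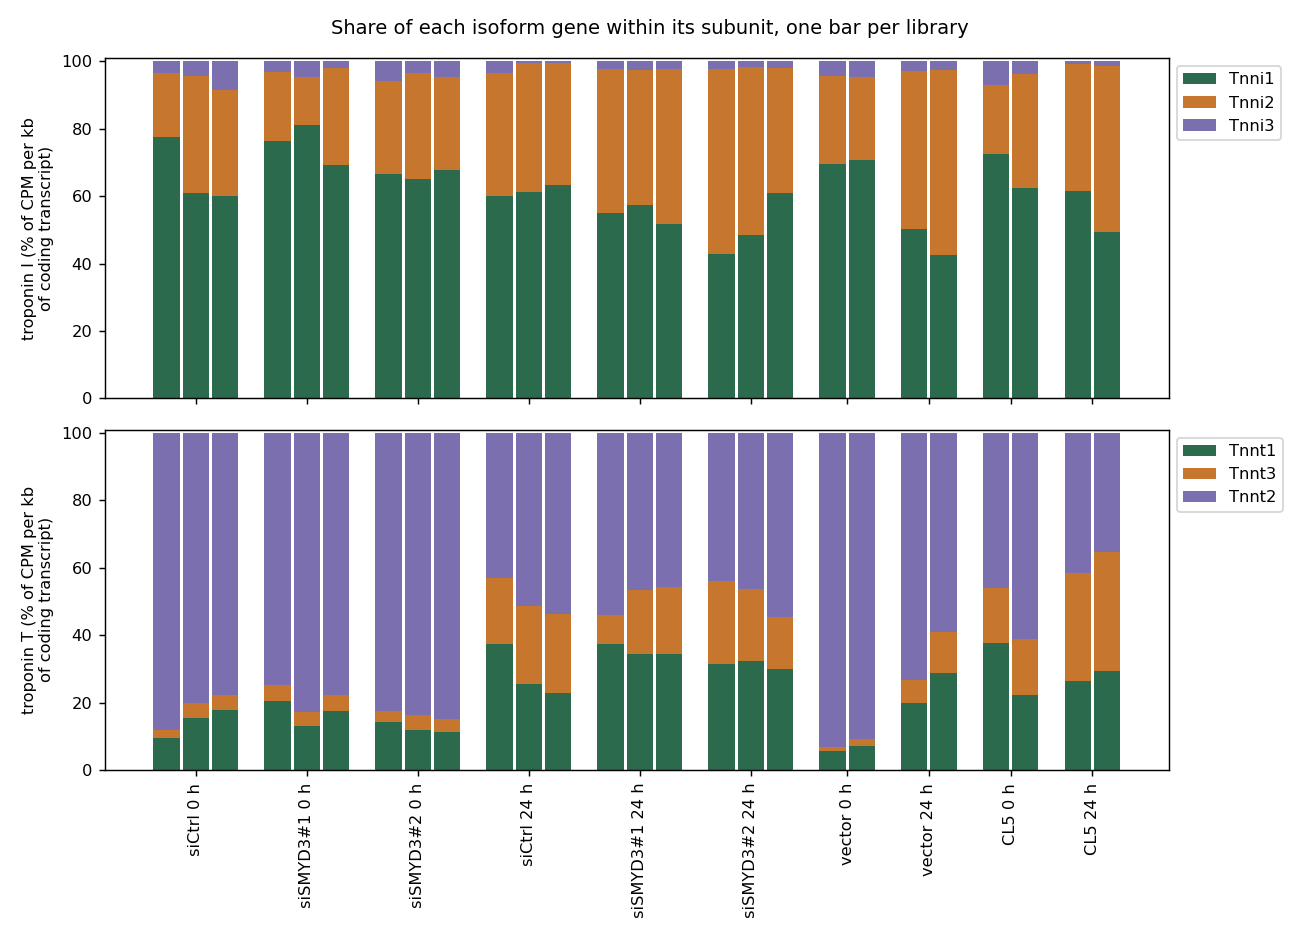
Share of each isoform gene within troponin I (upper panel) and troponin T (lower panel), in percent of CPM per kilobase of coding transcript, with a bar for each library grouped by condition. Tnnt2 falls from 77.8% to 88.1% of troponin T in siCtrl cells at 0 h to 43.0% to 53.6% at 24 h, and Tnni3 stays a thin band in troponin I throughout.

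Shifts of isoform ratio with time were tested over the siRNA libraries by permuting the time labels within each siRNA condition (8000 arrangements, two-sided, exact, smallest possible p 0.00025). This test was chosen after the data had been seen. It treats libraries as independent, although same-numbered libraries of the siRNA conditions deviated together, so its p-values are too small. With the time labels exchanged for a whole replicate set at once, 8 arrangements remain and no exact p can be below 0.25. The log2 ratio of Tnnt2 to Tnnt3 was lower by 2.98 at 24 h (mean difference -2.98, exact permutation p = 0.00025, adjusted over 4 ratios 0.0005), being -3.32 in siCtrl cells, -2.41 with siSMYD3#1 and -3.21 with siSMYD3#2. That of Tnnt1 to Tnnt3 differed by -1.10 (exact permutation p = 0.00075, adjusted 0.001) and that of Tnni1 to Tnni2 by -1.04 (exact permutation p = 0.00025, adjusted 0.0005). The ratio was lower at 24 h in each of the 9 pairs of same-numbered libraries for these 3 ratios (exact permutation p over sets 0.25 for each, the smallest possible). In the mean over the siRNA conditions the slow form thus lost ground to the fast form within both subunits, and the cardiac form within T. For Tnni1 to Tnni2 the difference was -0.51 in siCtrl cells, -1.51 with siSMYD3#1 and -1.10 with siSMYD3#2. In siCtrl cells it came mostly from the TRIzol libraries (1.99 to 0.72 per kilobase of coding transcript). The NucleoSpin pairs went from 0.81 to 0.68 and from 0.93 to 0.80. For Tnnt1 to Tnnt3 it was -1.56, -0.65 and -1.09, the TRIzol pair of siSMYD3#1 going from 2.12 to 2.11 per kilobase of coding transcript. The mean differences of the 3 ratios kept their sign within the NucleoSpin libraries (-3.11, -1.28 and -1) and within the TRIzol libraries (-2.73, -0.73 and -1.11). The ratio of Tnnc1 to Tnnc2 differed by -0.20 (exact permutation p = 0.732) and rests on few Tnnc2 counts.

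Differences of these ratios at 24 h, of each siSMYD3 from siCtrl and of CL5 from vector, were tested for 4 ratios in 3 comparisons, 12 tests in all. With 3 libraries against 3 the smallest p an exact permutation test can give is 0.1, and with 2 against 2 it is 0.33, so none could pass. The log2 ratio of Tnni1 to Tnni2 differed from siCtrl by -0.38 with siSMYD3#1 (exact permutation p = 0.1, adjusted 0.4) and by -0.63 with siSMYD3#2 (exact permutation p = 0.2). That of Tnnt1 to Tnnt3 differed by 0.90 and 0.29, and that of Tnnt2 to Tnnt3 by 0.55 and 0.10. In CL5 against vector the differences were -2.67 for Tnnt2 to Tnnt3 (exact permutation p = 0.33), -1.67 for Tnnt1 to Tnnt3 and 0.49 for Tnni1 to Tnni2. The T ratios in CL5 lay apart from vector by more than the SD of either group (0.01 to 0.80). Each of these SDs rests on 2 libraries, so this is a description and no support.

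Across the 10 conditions the order of mean levels was alike for most members. Tnnc1 was highest in CL5 at 24 h (154 CPM), then in siCtrl at 24 h (90.5 CPM) and CL5 at 0 h (68.8 CPM), and lowest in vector cells at 0 h (3.85 CPM). The ranges of siCtrl at 24 h and CL5 at 0 h overlapped, as did those of vector cells at 24 h and all siRNA conditions at 0 h down to siCtrl. Tnni1, Tnnt1, Tnnt2 and Tnnt3 were highest in siCtrl at 24 h (means 104, 165, 361 and 147 CPM), of which the range lay clear of the next condition for Tnnt1 alone. Tnni2 was highest in CL5 at 24 h (51.8 CPM), overlapping siCtrl at 24 h (45.0 CPM), and Tnni3 in CL5 at 0 h (2.44 CPM), overlapping CL5 at 24 h (1.65 CPM). Vector cells held the least of all 7 of these genes, at 0 h for Tnnc1, Tnni1, Tnni2, Tnni3, Tnnt1 and Tnnt3 and at 24 h for Tnnt2.

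Over the 26 libraries, which share conditions, the Pearson r of log2 CPM between members ran from 0.715 for Tnni3 with Tnnt2 to 0.982 for Tnnt1 with Tnnt3, given as a description. Of the pairs that lie close together, Tnni2 and Tnnt3 reached 0.969, Tnni1 and Tnnt2 0.872, and Tnni3 and Tnnt1 0.852. Tnni1 was closer to Tnnt3 (0.966) and Tnni3 to Tnni1 (0.875) than to the gene nearby. Among all other genes the profiles nearest to Tnni2 (r = 0.986), Tnnt3 (r = 0.974) and Tnnt1 (r = 0.952) were in each case that of Myl1, a fast skeletal myosin light chain. Srpk3, a muscle protein kinase, came nearest to Tnnc1 (r = 0.953) and Tnni1 (r = 0.979), followed by Casq2 (r = 0.953) and Klhl41 (r = 0.960). The nearest to Tnnt2 were Tmem38a (r = 0.873) and Srl (r = 0.846), both of the sarcoplasmic reticulum, and those to Tnni3 were Rtn2 (r = 0.891) and Mb (r = 0.888), the latter encoding myoglobin. Mylf-ps, a pseudogene by its name whose reads may be shared with a near-identical gene, was second for Tnni2 (r = 0.978) and Tnnt3 (r = 0.968). For Tnnt1 it was Mymk (r = 0.947), a gene of myoblast fusion.

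Other genes of the thin filament and of the fibre types give the setting. Of 11 tested partners of troponin on the thin filament, 8 rose and 1 fell in siCtrl cells from 0 h to 24 h, among them Actc1 (7.70 ± 0.507, log2 change ± SE) and Acta1 (7.31 ± 0.902), the cardiac and skeletal alpha actins, while Tpm3 fell (-0.40 ± 0.113). At 24 h 6 of them were lower with siSMYD3#1, led by Actc1 (-3.77 ± 0.398) and Acta1 (-3.75 ± 0.726), and 4 with siSMYD3#2, led by Lmod3 (-2.20 ± 0.412), a nucleator of actin filaments, and Actc1 (-2.15 ± 0.378). In CL5 at 24 h 2 passed, Lmod2 (5.81 ± 0.656) and Lmod3 (4.95 ± 0.321). The median log2 changes of the 11 were 1.75 in siCtrl cells, -1.02 and -0.96 with the siRNAs and 2.67 in CL5, each nearer 0 than that of the troponin genes.

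Slow-type genes other than troponin were few: 4 were tested in the siRNA libraries, of which 3 rose in siCtrl cells, led by Casq2 (5.14 ± 0.363) and Myh7 (4.39 ± 0.769), and Atp2a2 fell (-0.48 ± 0.079). Casq2, the cardiac and slow calsequestrin, was the only one lower with siSMYD3#1 (-3.21 ± 0.323) and with siSMYD3#2 (-2.00 ± 0.307). In CL5 at 24 h Myh7 (7.97 ± 0.576) and Casq2 (4.41 ± 0.511) passed by edgeR, out of 5 tested. Of 7 fast-type genes 5 rose in siCtrl cells, led by the light chains Mylpf (7.08 ± 0.328) and Myl1 (6.59 ± 0.301), and 3 were lower with each siRNA. Mylpf stood at -3.53 ± 0.266 and Myl1 at -2.55 ± 0.231 with siSMYD3#1, and at -2.24 ± 0.253 and -1.72 ± 0.225 with siSMYD3#2. None of 9 tested passed in CL5 at 24 h, with a median of 4.38. All 3 developmental genes, Myh3 (9.57 ± 0.527), Mybph (8.29 ± 0.370) and Myl4 (4.40 ± 0.446), rose in siCtrl cells and were lower with both siRNAs, Myh3 and Mybph leading with siSMYD3#1 (-4.0 ± 0.358 and -3.87 ± 0.265) and Myh3 and Myl4 with siSMYD3#2 (-2.41 ± 0.339 and -2.10 ± 0.397). None of the 3 passed in CL5 at 24 h, with a median of 4.41. Medians in siCtrl cells were 3.60 for the slow, 2.77 for the fast and 8.29 for the developmental genes.

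Heart genes were mostly too low to test. Of 9 genes on the cardiac list 3 had enough counts in the siRNA libraries, none rose in siCtrl cells and Gata4 fell (-0.38 ± 0.102); none passed with either siRNA at 24 h. In CL5 5 were tested and none passed at 24 h, with Myh6 at 5.94 ± 1.059 (edgeR adjusted p = 0.0295) and at 0.440 to 0.943 CPM. Genes of calcium release, which supply the calcium that troponin C binds, rose in 9 of 10 cases in siCtrl cells, led by Cacna1s (6.15 ± 0.634) and Ryr1 (4.67 ± 0.228), with a median of 2.08. At 24 h 6 were lower with siSMYD3#1, led by Cacna1s (-3.26 ± 0.497) and Ryr1 (-3.07 ± 0.209), and 7 with siSMYD3#2, led by Ryr1 (-2.00 ± 0.198) and Srl (-1.68 ± 0.230). In CL5 at 24 h 4 of the 10 passed as higher, including Trdn (4.21 ± 0.485), and Ryr3 as lower (-4.52 ± 0.362).

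Of 19 regulators of muscle genes 8 rose and 2 fell in siCtrl cells, with a median of 0.48, led by Myog and Smyd1 (2.67 ± 0.598). At 24 h 4 were lower with siSMYD3#1, the second after Myog being Vgll2 (-1.26 ± 0.212), and 3 with siSMYD3#2, Smyd3 among them. Myog, the myogenic factor myogenin, rose by 7.25 ± 0.383 on the log2 scale and was lower by -3.59 ± 0.302 with siSMYD3#1 and -1.81 ± 0.281 with siSMYD3#2 at 24 h. In CL5 it passed at 0 h (6.86 ± 0.888, edgeR adjusted p = 0.00885) and not at 24 h (3.82 ± 0.731, edgeR adjusted p = 0.0376). Myod1 did not pass in siCtrl cells (-0.25 ± 0.287) or against siCtrl at 24 h (-0.41 ± 0.293 and -0.94 ± 0.305). Smyd1 passed in CL5 at 24 h (3.64 ± 0.399). Of 5 myoblast markers 3 rose in siCtrl cells, led by Cdh15 (1.31 ± 0.253) and Chrna1 (1.2 ± 0.275), and none passed against siCtrl at 24 h with either siRNA. Of 4 smooth muscle markers tested, Acta2 (1.04 ± 0.130) and Smtn (0.52 ± 0.122) rose in siCtrl cells and none passed against siCtrl at 24 h; of 2 osteoblast markers tested, Runx2 fell in siCtrl cells (-0.36 ± 0.078). The part of these other markers in the troponin results was not tested.

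**Figure D4:**
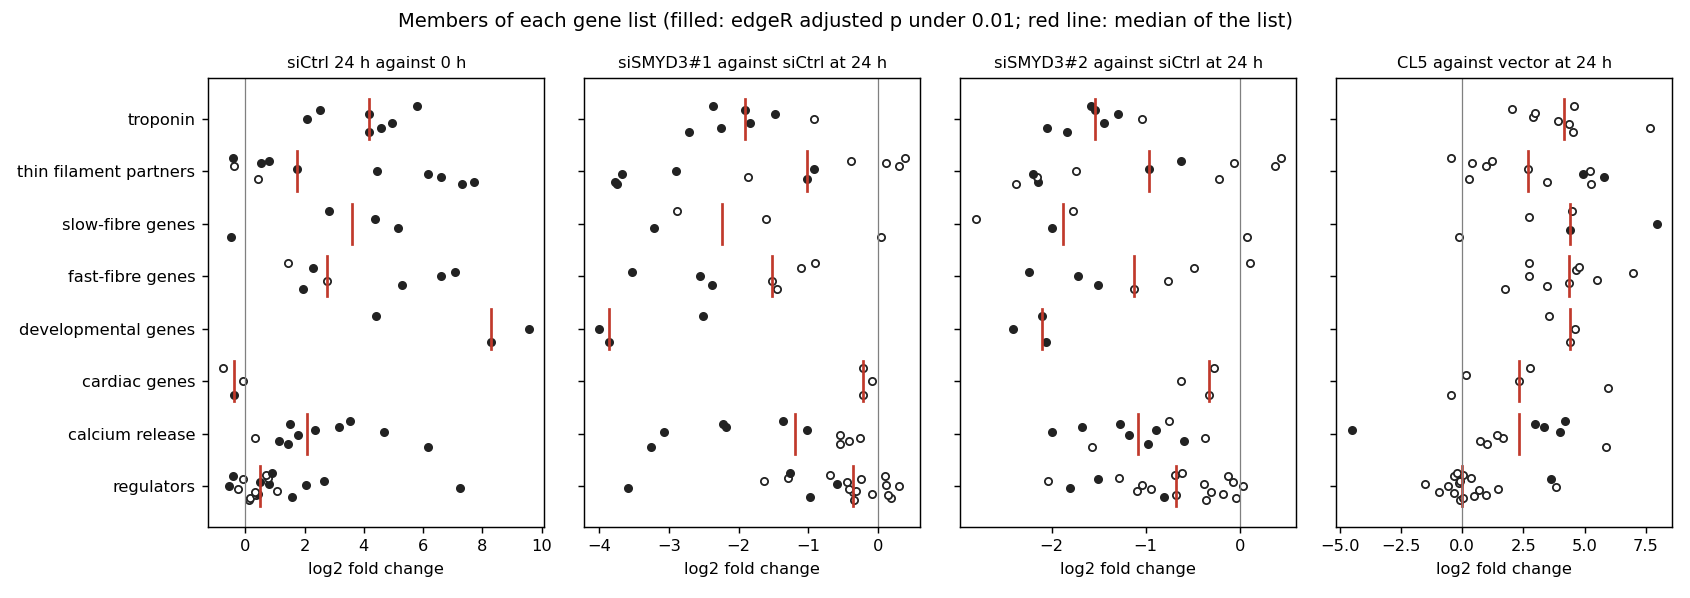
Log2 fold change of every tested gene of 8 lists in 4 comparisons, with filled points for an edgeR adjusted p under 0.01, open points for the rest and a vertical line at each list's median. The troponin genes lie together on the right in siCtrl cells (2.09 to 5.80) and on the left in the siSMYD3 comparisons, and the cardiac genes lie near 0 in the first 3 panels.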

How the data were processed

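RNA of 26 C2C12 libraries (TruSeq Stranded mRNA, polyA) was sequenced. The authors deposited whole-number counts of reads per Ensembl gene, not normalised; the submitters' notes name FastQC 0.11.5, HISAT2 2.1.0, featureCounts of Subread 1.6.3 and GRCm38, and the strand setting of the counting is not given in the sources used here. Of 55341 genes, 54495 had a GENCODE M21 symbol; no libraries were identical. Groups came from the treatment and timepoint labels. The labels do not say that libraries are separate cultures, while the study's methods call them biological replicates without describing how they were grown. The p-values measure the spread between these libraries. The study's own table places the TRIzol library of each siRNA condition at another passage and numbers the libraries. Same-numbered libraries of 2 siRNA conditions deviated together in 45 of 45 comparisons (r 0.309 to 0.847). Extraction was not removed from these deviations and goes with the number, so pairing and extraction cannot be told apart in them. Counts were tested in R 4.3.3 with edgeR 4.0.16 (TMM, filterByExpr, robust quasi-likelihood, Benjamini-Hochberg over all genes, threshold 0.01): the 18 siRNA libraries as 6 groups with extraction as covariate, and the 8 overexpression libraries as 4 groups. SE is the size of the log2 change over the square root of F. DESeq2 1.42.0 was an alternative, and so were other filters, designs and sets of libraries. The code of the tests was checked on simulated counts. These had no extraction difference, no paired libraries and no discordant CL5 library. Their dispersion for the overexpression design was below the 0.0903 estimated from the data, so the check does not cover these features. Isoform ratios used 0.5 added counts and were tested by exact permutation per kilobase of all exons. The length used does not change the differences of the log2 ratios. Levels by extraction used 0.05 CPM added before the logarithm. Lengths for the shares are medians of basic coding transcripts, chosen after the data were seen, as were the time test of the ratios and the values with Tnnc2 exon bases free of overlap. The members and lists were chosen with earlier results of these data known. All members are named; of each list, the 2 genes past the threshold with the largest change in each main comparison, with Smyd3, Myog and Myod1, were to be named, and for each member the 2 genes of nearest profile over the 26 libraries. Depth was 14315193 to 67853386 counts per library, and intervals cover counting error only.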

Additional observations from a re-analysis of the deposited data

Results flagged for a closer look

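The rise between 0 h and 24 h differed between siSMYD3#1 and siCtrl cells for 4 troponin genes by the interaction term of the edgeR fit. The difference of the log2 changes was -2.92 for Tnnc1, -2.75 for Tnni1, -1.93 for Tnnt1 and -2.89 for Tnnt3. In siCtrl cells these genes rose by 4.16, 4.58, 4.18 and 5.80 on the log2 scale, and with siSMYD3#1 by 1.23, 1.83, 2.25 and 2.91. The direction was also negative for the other 3 genes tested and for all 7 genes with siSMYD3#2, where none passed. The RNA level of Smyd3 itself did not pass with siSMYD3#1 (-0.24 at 24 h) and did with siSMYD3#2 (-1.51), and its part in these differences was not tested.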

How the results depend on the processing

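The number of troponin genes called over time in siCtrl, siSMYD3#1 and siSMYD3#2 cells and with siSMYD3#1 against siCtrl at 24 h stayed within 1.5 times of the reported count under every alternative run. The count with siSMYD3#2 against siCtrl at 24 h went from 6 to 2 without the extraction covariate and to 1 with all 26 libraries in 1 fit, and with 1 library left out it was 5 to 6. The interaction with siSMYD3#1 went from 4 to 0 without the covariate and to 0 in the 26-library fit, and was 2 to 6 with 1 library left out. That with siSMYD3#2 went from 0 to 6 by DESeq2, without the low-count filter and in the NucleoSpin libraries alone, and to 0 to 5 with 1 library left out (5 without the TRIzol library of siCtrl at 24 h). Between the siRNAs the count was 1 by DESeq2, 2 without the filter, 1 in the NucleoSpin libraries and 0 to 1 with a library left out; siSMYD3#2 against siCtrl at 0 h gave 1 in the NucleoSpin libraries. CL5 against vector went from 0 to 7 by DESeq2, 8 without the filter, 8 in the 26-library fit and 3 with a replicate block at 24 h, and to 6, 7, 7 and 2 at 0 h. With 1 overexpression library left out a group holds a single library, so no count is given. Vector cells over time gave 3 without the filter and 1 in the 26-library fit, and CL5 over time 2 without the filter. The replicate block, which pairs the siRNA libraries, changed no other call or count; in the overexpression libraries the numbers were not taken as pairs, since only 4 of 6 correlations between conditions exceeded 0.1. Values that turned in sign were all uncalled. With 1 library left out Tnni1 between the siRNAs was -0.4 to 0.29 and Tnni3 -0.151 to 0.416, and Tnni3 in the interaction was -1.112 to 0.428 with siSMYD3#1 and -1.593 to 0.045 with siSMYD3#2. In the NucleoSpin libraries these were 0.306 for Tnni1 and, in the interactions, 0.827 and 0.162 for Tnni3. With 2 added counts the Tnnc1 to Tnnc2 ratio moved to -0.94 with siSMYD3#2 and 0.44 in CL5. The share of all genes called is given for DESeq2 in CL5 against vector and not for the other alternatives. Causes were not tested. Low counts limit Tnnc2 and Tnni3, and 2 libraries per group limit CL5.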
